A study of Mus musculus with 21 samples.

Results

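Transporters that carry drugs, bile constituents, sterols and phospholipids across membranes were examined in the livers of mice given titanium dioxide (TiO2) nanoparticles through the airways. The set was chosen by gene name alone. It took in every named gene on the array from subfamilies A, B, C and G of the ATP-binding cassette (ABC) transporters, from the organic anion transporting polypeptides (Slco) and from the organic ion carriers of the Slc22a family, with the bile salt pump Abcb11 left out. It held 72 of the 16535 named genes on the array: 14 Abca, 7 Abcb, 10 Abcc, 6 Abcg, 12 Slco and 23 Slc22a genes. Where a gene had several probes, the one brightest in liver on average stood for it. Of the 72 genes, 48 passed the filter on dim probes and were tested among 17624 features: 8 Abca, 6 Abcb, 8 Abcc, 4 Abcg, 6 Slco and 16 Slc22a genes.

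ABC transporters use ATP to move their cargo across a membrane, whereas Slco and Slc22a proteins are carriers that exchange organic anions, cations or carnitine or let them follow a gradient. In hepatocytes the carriers of the sinusoidal membrane take up compounds from blood, ABC pumps of the canalicular membrane pass conjugates, phospholipid and sterol into bile, and ABC pumps of the basolateral membrane return conjugates to blood. Several of these genes are known targets of nuclear receptors such as LXR, PXR and CAR, and several are known to fall in rodent liver after endotoxin.

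Liver RNA came from female C57BL/6 mice, bought at 5 to 7 weeks of age and kept for 1 to 3 weeks before a single instillation into the trachea. Treated mice received 162 µg of TiO2 nanoparticles in saline that held 10% lavage fluid, free of cells, from lungs of untreated mice, and control mice received that vehicle alone. The groups were TiO2 at day 28 (n = 6), TiO2 at day 1 (n = 6), control at day 28 (n = 4) and control at day 1 (n = 5), each mouse on 1 array. The labels call the samples biological replicates from individual mice, and the p-values measure the spread between these mice.

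Every array carried liver RNA in Cy5 and the same universal mouse reference RNA, a pool from cell lines, in Cy3, and all levels below are log2 ratios of liver over reference. Such a ratio sets liver against the reference for 1 gene and does not give the abundance of that gene against another. The 9 hepatocyte markers found on the array were well above background on all 21 arrays, and averaged log2 ratios between 5.04 and 6.31. Because the labels' extraction text names lung, 10 lung epithelial markers were checked, with mixed results. Hopx and Sftpd, 2 of the 10, were above background on all 21 arrays, with mean log2 ratios of 3.07 and 0.89. Ager reached that level on 0 arrays, Sftpb and Sftpc on 2 each and Sftpa1 on 4. Between these lay Aqp5 (9 arrays), Slc34a2 (16), Scgb1a1 (17) and Lamp3 (20). Liver signal was well above background for 13001 to 26632 of 41174 probes per array, and the 8 arrays of the second of 3 scan days had the highest counts, 20907 to 26632. Each scan day held arrays of all 4 groups, though not in equal numbers. Scan day 1 held 2 mice of each TiO2 group and 1 of each control group. Scan day 2 held 2 mice of every group, and scan day 3 held 1 control mouse of day 28 and 2 mice of each other group.

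The transporters for sterols and phospholipids ranged widely against the reference. Abcg5, which forms with Abcg8 the heterodimer that exports sterols into bile, averaged a log2 ratio of 5.73 over the 21 arrays, between 3.82 and 6.59. Abcg8 averaged 1.00, between 0.43 and 1.64. The pair starts on chromosome 17 on opposite strands, and the RefSeq promoter windows of both genes (GRCm38.p6, 250 bases before to 50 after the annotated start) share 209 bases. They are shown because they hold the stretch that the partners have in common. Abcg5 has the window chr17:84682962-84683261 on the minus strand and Abcg8 the window chr17:84682871-84683170 on the plus strand. Capitals mark matches on either strand to the motif CCAAT, known as the CCAAT box, and to the motif AGATAA, a form of the GATA box. A nuclear receptor half-site, spelled AGGTCA, was searched on both strands as well.
Abcg5: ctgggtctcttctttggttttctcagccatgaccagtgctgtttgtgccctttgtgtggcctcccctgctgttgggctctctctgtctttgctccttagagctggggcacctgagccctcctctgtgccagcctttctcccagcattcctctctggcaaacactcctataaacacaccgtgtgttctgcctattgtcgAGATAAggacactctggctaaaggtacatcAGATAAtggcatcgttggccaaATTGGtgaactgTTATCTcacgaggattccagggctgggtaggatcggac
Abcg8: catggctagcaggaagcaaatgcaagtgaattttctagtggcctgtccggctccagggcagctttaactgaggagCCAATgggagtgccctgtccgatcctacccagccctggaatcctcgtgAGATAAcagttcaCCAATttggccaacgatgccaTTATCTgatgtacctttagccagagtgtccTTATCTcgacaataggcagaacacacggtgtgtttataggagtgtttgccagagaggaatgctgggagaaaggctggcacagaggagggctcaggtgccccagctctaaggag
The Abcg5 window held 3 matches to AGATAA and 1 to CCAAT, and the Abcg8 window held 3 and 2. AGGTCA matched neither. Of the 69 windows found for 59 of the 72 transporters, 36.2% held CCAAT, 10.1% AGATAA and 13.0% AGGTCA, against 37.4%, 11.2% and 16.3% of all 32851 windows of the table. The motifs were picked with the sequences in view, and a match of letters is not a binding site. A second Abcg8 window in the table, chr17:84676052-84676351, held none of the 3 motifs.

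Abca1, which loads cholesterol and phospholipid onto apolipoprotein A-I, averaged a log2 ratio of 2.48, between 0.80 and 3.41. Abcg1, which passes cholesterol to lipoprotein particles, lay below the reference at -0.31, with all 21 arrays between -0.56 and -0.06. Abcb4, the canalicular phosphatidylcholine floppase, averaged 4.02, and a dimmer probe of it had group means from 1.85 to 2.12. Within the Abca subfamily, Abca8a (2.82) and Abca6 (2.81) had the highest ratios. Abca7, a phospholipid transporter related to Abca1, had the lowest ratio of all 48 genes at -2.43.

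Among pumps for conjugates and drugs, Abcc2, the canalicular pump for bilirubin and glutathione conjugates, averaged 4.47, and Abcc3, which moves conjugates across the basolateral membrane, averaged 3.66. Abcg2, the breast cancer resistance protein, averaged 1.67, and Abcb1b, a P-glycoprotein, averaged 1.73. Dimmer probes past the filter gave lower levels. Their group means ran from 0.43 to 0.67 for Abcc3, from 0.79 to 1.02 for Abcg2 and from -1.40 to -1.28 for Abcb1b. Abcc6, whose loss causes ectopic mineralisation, averaged 1.40. Abcc4 (-1.24), Abcc5 (-1.32) and Abcc1 (-2.11), pumps of the plasma membrane of many cell types, were lower in liver than in the reference. The porphyrin-linked transporter Abcb6 averaged 2.04. The mitochondrial transporters Abcb10 and Abcb8 averaged 0.45 and -0.15, and the lysosomal peptide transporter Abcb9 averaged -1.71.

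Uptake carriers included high ratios. The organic anion carrier Slco2b1 averaged 5.87, Slc22a26 averaged 5.41, and Slc22a7, the organic anion transporter OAT2, averaged 5.02. Slco1a4 averaged 3.33, the prostaglandin carrier Slco2a1 averaged 2.29, and Slco1a1 averaged 1.51. Slco3a1, expressed in many tissues, was the lowest of the 6 tested genes of its family at -1.36. Slc22a5, the carnitine transporter OCTN2, averaged 0.54, and its relatives Slc22a4 and Slc22a21 averaged -0.11 and -0.34. A dimmer Slc22a5 probe had group means from -0.33 to -0.19. Family medians of the log2 ratios were 1.90 for Slco, 1.48 for Abca, 1.34 for Abcg, 1.09 for Abcb, 0.85 for Slc22a and 0.37 for Abcc, against 0.06 for all features tested. These medians include genes with a dim reference signal, such as Abca6, Abcc6, Abcg8 and Slco1a1. The reference was dim too for Abcc2, Slc22a26 and Slco1a4, with mean signals of 49.5, 57.4 and 59.4 intensity units, against 32.5 for Slco1a1. Their high ratios share this limit. Of the 48 genes, 18 averaged above 2 and 12 below 0.

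**Figure D1:**
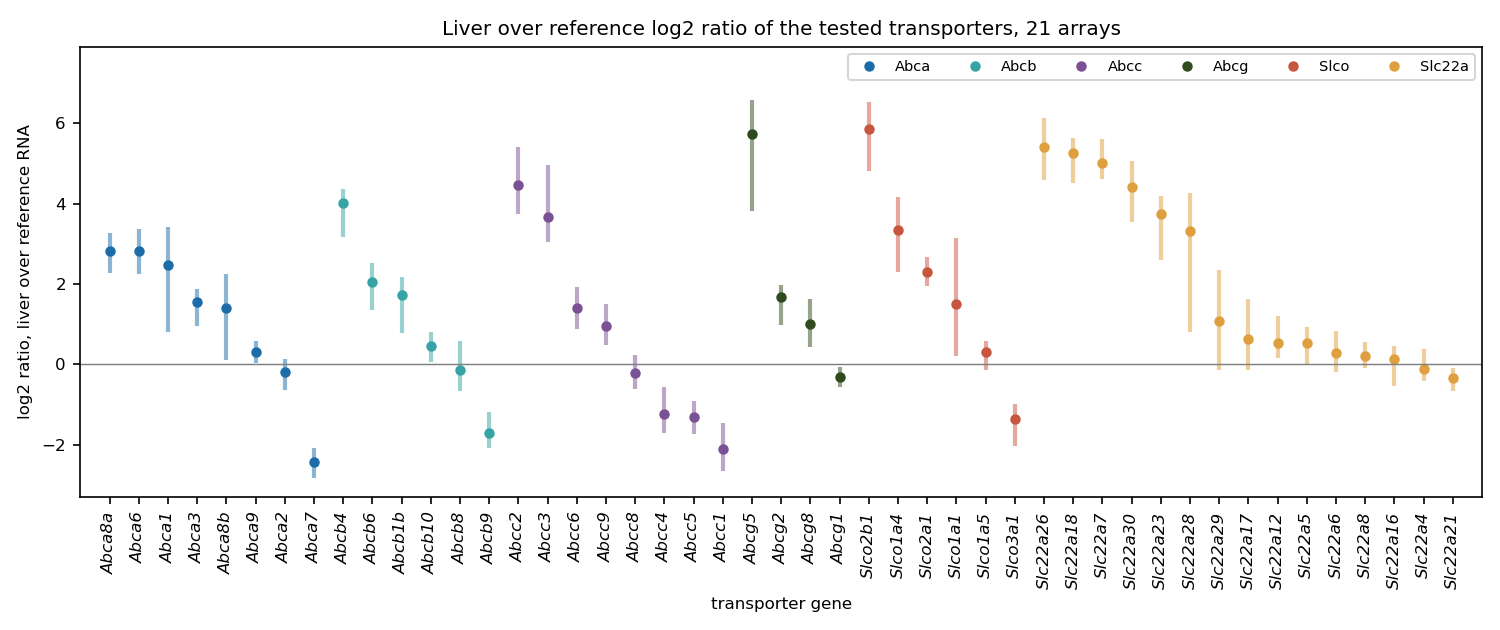
Log2 ratio of liver over reference RNA (vertical axis) for 47 of the 48 tested transporters (horizontal axis), grouped and coloured by family. Points are means over 21 arrays and lines run from the lowest to the highest array; Slco2b1 and Abcg5 have the highest means drawn, 5.87 and 5.73, and Abca7 the lowest, -2.43.

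The 24 other transporters were above background on at most 4 arrays, and 15 of them on none. Their mean liver signal lay between 71.9 and 85.3 intensity units, and no difference is given for them. Abcb1a, the second rodent P-glycoprotein gene, was above background on 0 arrays, as were Slc22a3 and Slco4c1. Slc22a2, an organic cation transporter best known from kidney, was above background on 2 arrays. No probe was matched to Slco1b2, which is not analysed here.

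By family, the median over the 8 tested Abca genes of their mean log2 ratios was 1.48 in TiO2 mice at day 28 and 1.37 in TiO2 mice at day 1, against 1.50 in control mice at day 28 and 1.58 in control mice at day 1. For the 6 tested Slco genes the medians were 2.04 and 2.01 in TiO2 mice at days 28 and 1, against 1.76 and 1.70 in control mice at days 28 and 1. For the 16 tested Slc22a genes they were 0.67 and 0.78 in TiO2 mice at days 28 and 1, against 0.97 and 1.13 in control mice at days 28 and 1. Gene by gene, 3 of the 6 Slco genes were higher and 3 lower in TiO2 than in control mice at both days, with a median difference of 0.02 at day 28 and 0.01 at day 1. Of the 16 Slc22a genes, 7 were higher and 9 lower at day 28, with a median difference of -0.03 (0.02 with scan day as a block), and 5 were higher and 11 lower at day 1, with a median difference of -0.09. The median differences of the other families were 0.06 for Abca, 0.02 for Abcb, -0.01 for Abcc and -0.03 for Abcg at day 28, and -0.07, -0.08, -0.08 and -0.02 in that order at day 1. With scan day as a block they were 0.15, 0.02, -0.04 and 0.06 at day 28, and -0.04, -0.08, -0.05 and -0.0045 at day 1. No member of any family passed a test between TiO2 and control mice. In whole liver, fewer cells of a type and less RNA per cell cannot be told apart.

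The comparison at day 1 asked whether particles in the airways were followed by altered transporter RNA in the liver within a day. None of the 48 transporters passed an adjusted p of 0.05 in limma with Benjamini-Hochberg adjustment, and 0% of all 17624 features did. At an unadjusted p under 0.05 the count was 0 of 48, against 1.72% of all features, and with scan day as a block in the model it was 1 of 48 (Abcb10), against 4.09%. By sign alone, 15 transporters were higher and 33 lower in TiO2 mice, with a median difference of -0.08, whereas 48.1% of all features were above 0 and their median was -0.0055. With the block the transporters' median was -0.04. TiO2 and control mice overlapped in all 48, whereas the groups lay apart for 0.0681% of all features, higher in TiO2 mice, and for 0.0511%, lower. The SE of the difference ran from 0.11 to 0.55 over the 48 genes, with a median of 0.17.

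Abcb10, a mitochondrial transporter needed for heme synthesis in red cell precursors, had the smallest unadjusted p at day 1. Its log2 ratios in TiO2 mice ran from 0.05 through a median of 0.31 to 0.57, against 0.46, 0.68, 0.55, 0.75 and 0.51 in control mice. Of the 6 TiO2 mice, 4 lay below every control and 2 within their range. The difference was -0.27 ± 0.13 (SE, limma adjusted p = 1). Abca7 differed by -0.21 ± 0.13, and Slc22a26, a member of the organic anion transporter branch, was higher by 0.29 ± 0.17. Slc22a12, the urate transporter of the kidney, was higher by 0.23 ± 0.18.

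Abcb1b and Slco1a1 had larger differences with wider spread. Abcb1b had log2 ratios of 0.77 to 2.14 in TiO2 mice at day 1 with a median of 1.68, against 1.90, 1.80, 1.94, 1.83 and 2.10 in control mice, a difference of -0.31 ± 0.25, and a second, dimmer probe, well above background on 7 arrays, gave 0.03 ± 0.25. The controls were tightly grouped and the TiO2 mice extended both below and above them. Slco1a1, a sinusoidal carrier of organic anions, had 0.57 to 2.48 with a median of 1.90 in TiO2 mice, against 0.35, 2.12, 1.36, 0.79 and 1.13 in control mice, a difference of 0.53 ± 0.45. Within scan days 1, 2 and 3 the Slco1a1 difference was 1.98, -0.25 and 0.25.

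By role, 10 of 12 tested sterol and phospholipid transporters were lower and 2 higher in TiO2 mice at day 1, and 0 passed the test. Abca1 differed by -0.20 ± 0.41, Abcg5 by -0.41 ± 0.55, Abcg8 by -0.11 ± 0.20 and Abcb4 by -0.05 ± 0.24, each less than its SE. A second, dimmer Abcg8 probe, well above background on 8 arrays, gave -0.26 ± 0.11. Of 6 tested canalicular pumps, 5 were lower, and Abcg2 gave 0.10 ± 0.14 by its brightest probe and -0.23 ± 0.22 by its second probe. Of 6 tested basolateral pumps, 3 were higher and 3 lower, with Abcc3 at -0.08 ± 0.21 and Abcc4 at 0.05 ± 0.16. Of 9 tested organic anion carriers, 3 were higher and 6 lower, with Slc22a7 at -0.10 ± 0.14 and Slco2b1 at -0.12 ± 0.30. Of 5 tested carriers for cations and carnitine, 2 were higher and 3 lower, with Slc22a5 at 0.03 ± 0.14. These signs and SEs are from the model without scan day, where spread between scan days counts as residual. The medians of these lists, in that order, were -0.08, -0.15, -0.01, -0.05 and -0.05. With scan day as a block they were -0.04, -0.11, -0.0005, 0.01 and 0.02. Abcb4 and Slco2b1 changed sign with the block, to 0.06 and 0.02.

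**Figure D2:**
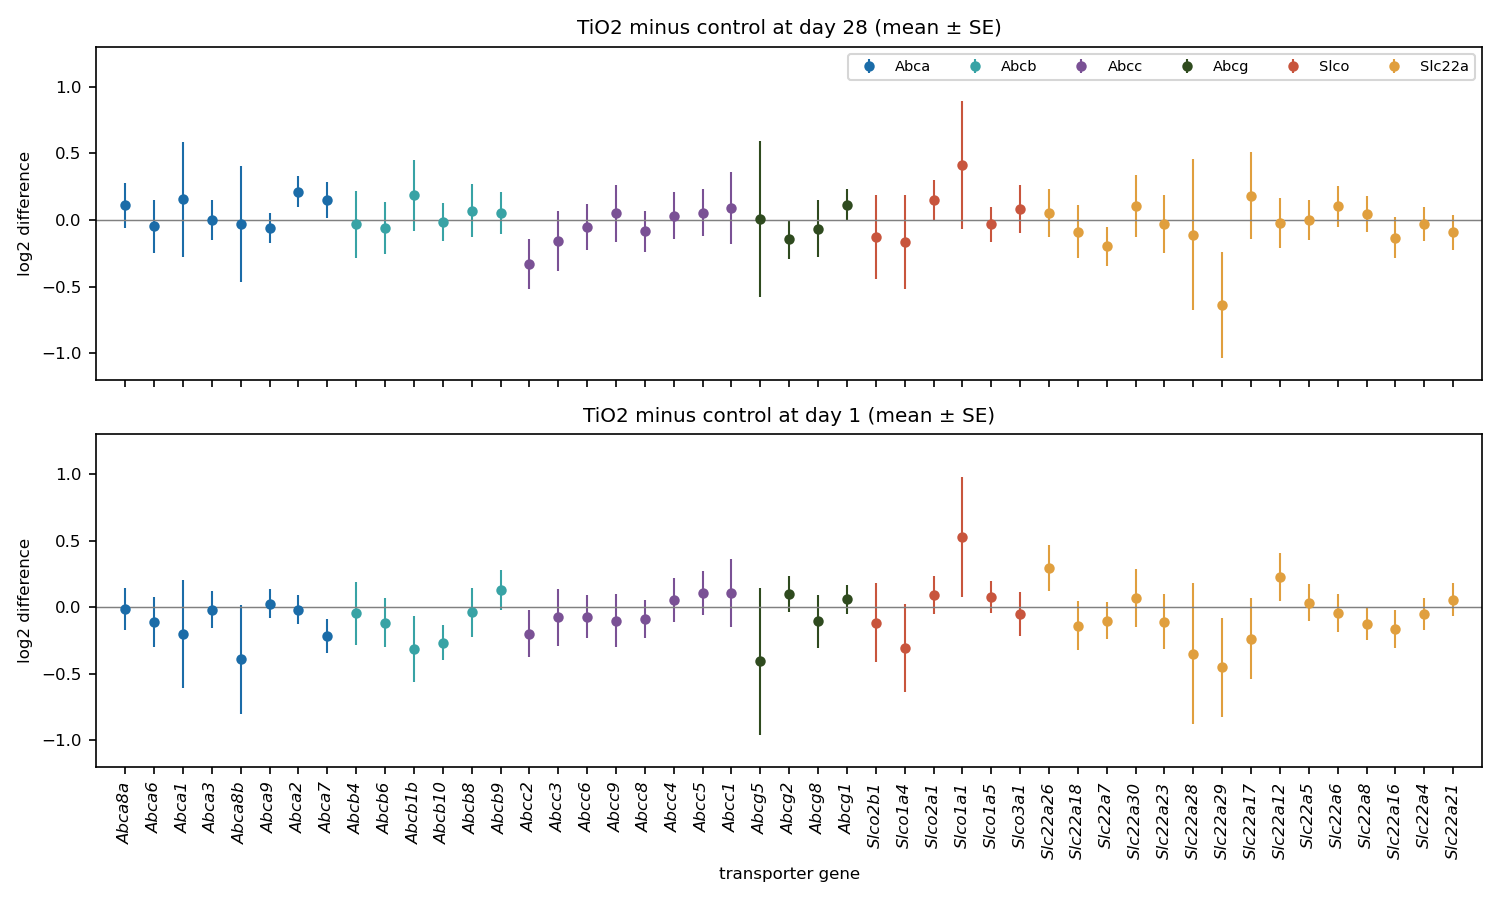
Difference in log2 ratio between TiO2 and control mice (vertical axis, TiO2 minus control) for 47 of the 48 tested transporters (horizontal axis), at day 28 in the upper and day 1 in the lower panel. Points are differences with the SE of limma, coloured by family; Slco1a1 is the highest at both days, 0.41 and 0.53, and Slc22a29 the lowest, -0.64 and -0.45, each with a wide SE.

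The comparison at day 28 asked whether a difference was present 28 days after the instillation. Of the 48 transporters, 0 passed the adjusted threshold in limma, and 0% of all features did. The count at an unadjusted p under 0.05 was 0 of 48, against 0.942% of all features (0.386% higher and 0.556% lower). By sign, 24 transporters were higher and 24 lower in TiO2 mice, with a median of -0.01, whereas 51.5% of all features were above 0. The groups overlapped in all 48, and lay apart for 0.131% of all features, higher in TiO2 mice, and for 0.153%, lower. The SE ran from 0.11 to 0.59 with a median of 0.18.

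Abca2, a lipid transporter of endolysosomes, had the smallest p at day 28. Its log2 ratios were -0.28 to 0.12 in TiO2 mice with a median of -0.05, against -0.07, -0.41, -0.22 and -0.34 in control mice, a difference of 0.21 ± 0.12 (limma adjusted p = 1). Abcc2 had 3.74 to 4.41 in TiO2 mice with a median of 4.28, against 4.61, 4.80, 4.51 and 4.08 in control mice, a difference of -0.33 ± 0.19 (adjusted p = 1). For Abcc2, 3 of the 4 control mice lay above every TiO2 mouse and the fourth lay among them.

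Slc22a29, a relative of the organic anion transporters, differed by -0.64 ± 0.40 at day 28 and by -0.45 ± 0.37 at day 1. It had -0.14, 0.26, 1.41, 1.35, 0.87 and 0.69 in TiO2 mice at day 28, against 0.45, 2.34, 1.52 and 1.18 in control mice. It was one of the dimmer genes, above background on 16 of the 21 arrays. With scan day as a block its day 28 difference was -0.47 (limma adjusted p = 1), and within scan days 1, 2 and 3 it was -0.39, -0.55 and -0.41. In the blocked model 3.01% of all features had an unadjusted p under 0.05, and 1 of the 48 transporters did.

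Among sterol and phospholipid transporters at day 28, 7 of 12 were higher and 5 lower in TiO2 mice, with Abca1 at 0.16 ± 0.43, Abcg5 at 0.01 ± 0.59 and Abcb4 at -0.03 ± 0.25. Of 6 tested canalicular pumps, 2 were higher and 4 lower. Of 9 tested organic anion carriers, 5 were higher and 4 lower, with Slco1a1 at 0.41 ± 0.48 and Slc22a7 at -0.20 ± 0.15. Each of these differences was smaller than its SE, except that of Slc22a7. The medians of these lists, in that order, were 0.01, -0.05 and 0.04, and 0.13, 0.02 and 0.07 with scan day as a block. The Slco1a1 difference at day 28 was 0.03 without control day 28 replicate 4 and 1.01 without control day 28 replicate 3. With the log ratios of the scanner software it was 2.36 at day 28 and 1.82 at day 1. Between 12.8% and 25.6% of those log ratios were exactly 0 on an array. Slco1a1 was dim, with a mean liver signal of 172 intensity units.

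Whether the TiO2 effect differed between the days was tested as an interaction, the effect at day 28 minus the effect at day 1. Of the 48 transporters 0 passed in limma, as did 0% of all features, and the count at an unadjusted p under 0.05 was 0 of 48, against 0.715% of all features. With scan day as a block it was 1 of 48 (Abca7), against 2.91%. By sign 31 transporters were higher and 17 lower, and 51% of all features were above 0. Abca7 had the smallest p. It averaged -2.38 ± 0.22 (SD, n = 6) in TiO2 mice and -2.53 ± 0.21 (SD, n = 4) in control mice at day 28, and -2.53 ± 0.24 (SD, n = 6) in TiO2 mice and -2.31 ± 0.11 (SD, n = 5) in control mice at day 1. The change of its effect was 0.36 ± 0.19 (limma adjusted p = 1), and within scan days 1, 2 and 3 it was 0.98, 0.14 and 0.16. Abcb1b had the highest change of effect of the 48, 0.50 ± 0.37, and its second, dimmer probe gave 0.07 ± 0.37. For Abcg2 the brightest probe gave -0.24 ± 0.20 and the second probe 0.31 ± 0.32. Of the 12 sterol and phospholipid transporters, 11 had a higher and 1 a lower effect at day 28 than at day 1, with a median change of 0.09, against 0.0039 for all features, and 0 passed the test.

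The comparison of day 28 with day 1 within each treatment asked how far transporter RNA differed between mice taken at the 2 times, which also differ in age by the time between them. Slc22a26 and Abcc3 were lower at day 28 in both treatments. In TiO2 mice 0 of 48 transporters passed the adjusted threshold in limma, and 0.034% of all features did. At an unadjusted p under 0.05, 3 transporters were lower (Slc22a26, Abcc3 and Abcc2) and 0 higher, against 1.64% of all features lower and 2.12% higher, 3.76% in all; with scan day as a block 6 passed that level, against 8.69%. By sign 28 were higher and 20 lower at day 28, and 51.3% of all features were above 0. In control mice 0 of 48 passed, against 0% of all features, and 2 were lower at an unadjusted p under 0.05 (Slc22a26 and Abcc3), against 1.24% of all features lower and 1.76% higher; with the block 3 passed that level, against 7.65%. By sign 21 were higher and 27 lower at day 28, and 48.6% of all features were above 0. The groups overlapped in all 48, and lay apart for 0.454% of all features, higher at day 28, and for 0.272%, lower.

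Slc22a26 showed the clearest separation. Its log2 ratios were 5.23, 4.59, 5.00, 5.07, 5.39 and 5.17 in TiO2 mice at day 28, against 5.95, 5.75, 5.66, 6.06, 5.62 and 6.12 in TiO2 mice at day 1. Every day 28 mouse lay below every day 1 mouse. The difference was -0.79 ± 0.16, or 1.72-fold lower (limma adjusted p = 0.108), so it did not pass the threshold. With scan day as a block the difference was the same and the adjusted p was 0.0485, and within scan days 1, 2 and 3 it was -0.94, -0.82 and -0.59. In that blocked model 0.113% of all features passed, and Slc22a26 was the 1 transporter among them. When each TiO2 mouse in turn was left out of the blocked model, the adjusted p of Slc22a26 lay between 0.0432 and 0.173 and passed in 3 of 12 cases, without TiO2 day 1 replicate 5 or TiO2 day 28 replicate 1 or 5. From the scanner software's own log ratios the Slc22a26 difference was -0.39.

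In control mice Slc22a26 had 4.90, 5.23, 5.08 and 4.88 at day 28, against 5.40, 5.26, 6.06, 5.11 and 6.02 at day 1. These groups overlapped at 1 day 1 mouse. The difference was -0.55 ± 0.19 (limma adjusted p = 1), and within scan days 1, 2 and 3 it was -0.49, -0.51 and -0.68. The difference between the treatments in this change was -0.24 ± 0.25 (adjusted p = 1). No arrays are shared between the comparisons of days in TiO2 and control mice. Averaged over both treatments, a contrast added after the data were seen, Slc22a26 differed by -0.67 ± 0.12 between day 28 and day 1 (limma adjusted p = 0.0303, and 0.0148 with scan day as a block), where 0.0908% of all features passed, and 0.817% with the block.

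Slc22a26 lies on chromosome 19 in a row of Slc22a genes, with Slc22a19 before it and Slc22a27, which is not among the 72, Slc22a28, Slc22a29, Slc22a30, Slc22a8 and Slc22a6 after it in the RefSeq order of protein-coding genes. The other 5 tested genes of that row had smaller differences between days in TiO2 mice. Slc22a28 had 0.17 ± 0.51, Slc22a29 -0.21 ± 0.35, Slc22a30 0.02 ± 0.21, Slc22a8 0.13 ± 0.12 and Slc22a6 -0.05 ± 0.14. Whether the Slc22a26 probe also binds RNA of its relatives was not tested. Its promoter window, chr19:7802618-7802917 on the minus strand (GRCm38.p6), is shown as that of the gene with the largest difference between days. It holds 1 match to CCAAT, in capitals, and none to AGATAA or AGGTCA.
Slc22a26: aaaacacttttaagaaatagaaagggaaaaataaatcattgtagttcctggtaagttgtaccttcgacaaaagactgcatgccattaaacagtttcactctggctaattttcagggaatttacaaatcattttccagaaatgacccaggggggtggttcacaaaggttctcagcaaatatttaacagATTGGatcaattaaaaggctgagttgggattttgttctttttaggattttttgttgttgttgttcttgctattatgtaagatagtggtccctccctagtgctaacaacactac

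Abcc3 had log2 ratios of 3.21, 3.04, 3.60, 3.38, 3.21 and 3.24 in TiO2 mice at day 28, against 4.47, 4.05, 3.92, 3.64, 3.72 and 3.71 in TiO2 mice at day 1. The groups did not overlap, and the highest day 28 mouse, at 3.60, lay just below the lowest day 1 mouse, at 3.64. Slc22a26 and Abcc3 were the 2 transporters of 48 with lower and separate groups, against 0.176% of all features, and 0 were higher and separate, against 0.193%. The Abcc3 difference was -0.64 ± 0.20, or 1.56-fold lower (limma adjusted p = 0.776, and 0.191 with scan day as a block). Within scan days 1, 2 and 3 it was -1.14, -0.29 and -0.49. A second, dimmer Abcc3 probe gave -0.16 ± 0.16.

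In control mice Abcc3 had 3.79, 3.34, 3.38 and 3.23 at day 28, against 4.97, 3.61, 4.06, 3.35 and 4.00 at day 1, and these groups overlapped. The difference was -0.56 ± 0.23 (limma adjusted p = 1). It was -0.32 without control day 1 replicate 1, the mouse at 4.97, and the second probe gave 0.08 ± 0.19. Averaged over treatments, Abcc3 differed by -0.60 ± 0.15 between day 28 and day 1 (limma adjusted p = 0.186, and 0.0295 with scan day as a block).

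Abcc2 differed by -0.37 ± 0.17 between day 28 and day 1 in TiO2 mice (limma adjusted p = 1), with 3.74 to 4.41 and a median of 4.28 at day 28, against 4.24 to 4.84 and a median of 4.58 at day 1. In control mice it differed by -0.24 ± 0.19. Slc22a7 differed by -0.25 ± 0.13 in TiO2 mice and by -0.15 ± 0.15 in control mice. Toward higher values at day 28, Abca2 had 0.21 ± 0.10 in TiO2 mice and -0.02 ± 0.12 in control mice, and Abcg8 had 0.32 ± 0.19 in TiO2 mice and 0.28 ± 0.22 in control mice, none past the adjusted threshold. The second Abca2 probe gave 0.00 ± 0.13 in TiO2 mice, and the second Abcg8 probe gave 0.13 ± 0.10 in TiO2 mice and -0.03 ± 0.12 in control mice.

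**Figure D3:**
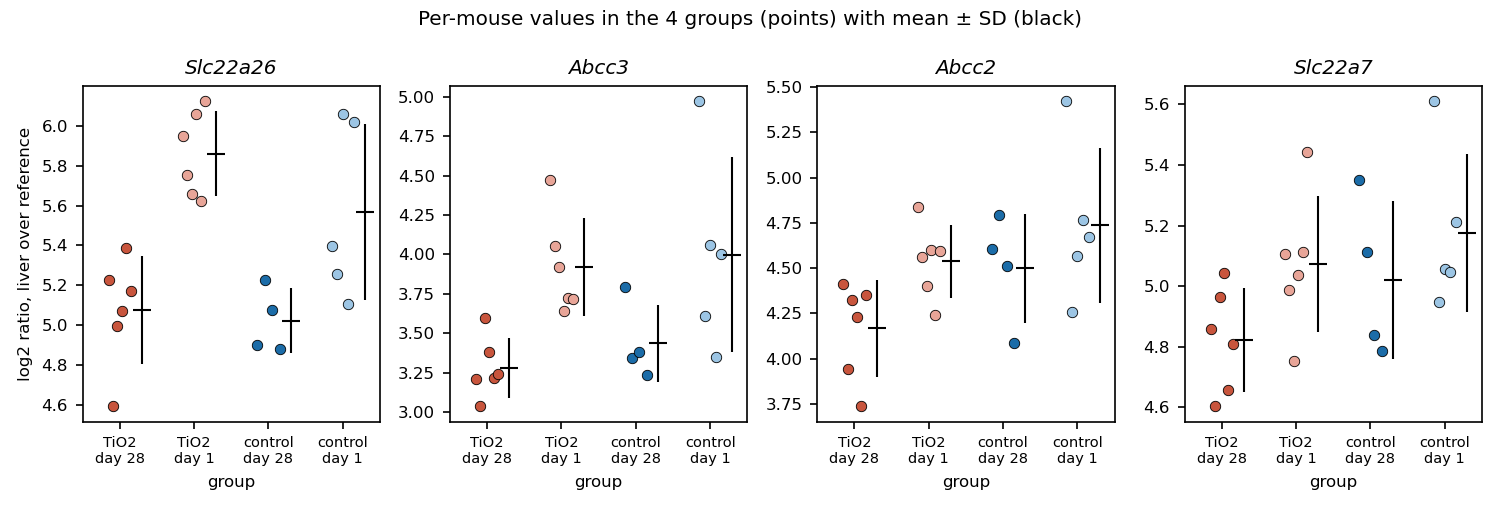
Log2 ratio of liver over reference (vertical axis) of Slc22a26, Abcc3, Abcc2 and Slc22a7 in each mouse, by group (horizontal axis), with the mean and SD of each group in black. In TiO2 mice the day 28 points of Slc22a26 (4.59 to 5.39) and Abcc3 (3.04 to 3.60) all lie below the day 1 points (5.62 to 6.12 and 3.64 to 4.47), whereas the groups of Abcc2 and Slc22a7 overlap.

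Across the 48 transporters, the difference between days in TiO2 mice had the sign of that in control mice for 29 genes (60.4%), against 60.2% of all features. Pearson's r between the 2 sets of differences was 0.60 and Spearman's rho 0.35 over the 48 genes, against 0.41 and 0.31 over all features. These are descriptions across genes, which are not independent, and the mice on a scan day share that day in both sets.

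Scan day went with much of the spread of the transporters between mice. It accounted for a median of 46.7% of the variance of a transporter, against 35.7% for all features, and for over 50% in 23 of 48 (47.9%), against 32.7% of all features. The lowest mean fell on scan day 1 for 28 of the 48. High shares were those of Abcb4 (89.0%), Slco2b1 (87.2%) and Abcg5 (86.2%). Abcg5 ran from 3.82 to 5.34 on the 6 arrays of scan day 1, from 5.85 to 6.57 on the 8 of scan day 2 and from 5.79 to 6.59 on the 7 of scan day 3. Slco2b1 ran from 4.80 to 5.59, from 5.91 to 6.13 and from 6.08 to 6.53 on those days.

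The members with the smallest p between days, in the model without scan day, had low scan-day shares. Spread between scan days counts as residual in that model, so picking members by its p favours a low share. The scan-day share was 2.38% for Slc22a26, 10.2% for Abcc2 and 13.9% for Abcc3, and group accounted for 64.3%, 41.2% and 49.8% of their variance after scan day. Slc22a7 (3.84%) and Abcg1 (2.24%) also had low scan-day shares. The scan day is read from the array headers, and whether it stands for hybridisation, labelling or extraction was not tested.

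**Figure D4:**
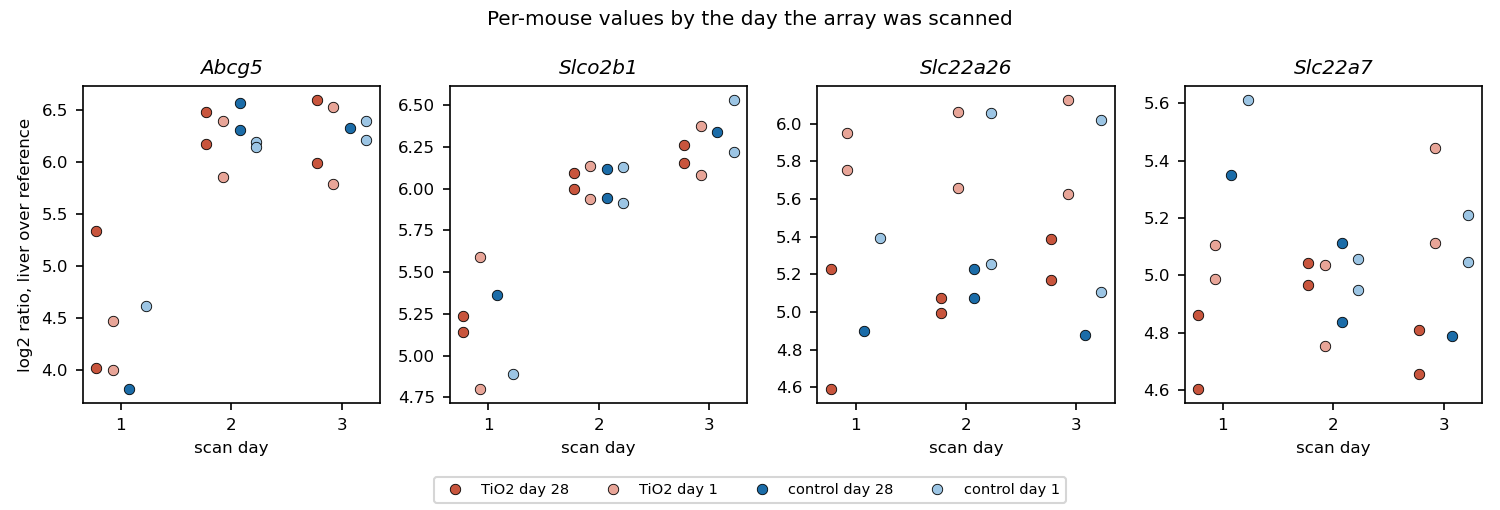
Log2 ratio of liver over reference (vertical axis) of Abcg5, Slco2b1, Slc22a26 and Slc22a7 in each mouse, by scan day of its array (horizontal axis), coloured by group. Abcg5 and Slco2b1 are lowest on scan day 1 in all 4 groups (3.82 to 5.34 and 4.80 to 5.59), whereas the scan days of Slc22a26 and Slc22a7 overlap.

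Abcg5 and Abcg8, partners in 1 heterodimer, were compared across livers within each scan day, since the arrays of scan day 1 lay apart at low Abcg5 and no pooled value is given. On scan day 3 (n = 7) Pearson's r was 0.93 (exact permutation p = 0.000992) and Spearman's rho 0.96 (exact permutation p = 0.00278), with adjusted p = 0.00595 and 0.0167 over the 6 correlations of each kind computed. On scan day 2 (n = 8) r was 0.71 (exact permutation p = 0.0469, adjusted p = 0.141) and rho 0.74 (exact permutation p = 0.0458, adjusted p = 0.138). On scan day 1 (n = 6) r was 0.48 (exact permutation p = 0.324, adjusted p = 0.434) and rho 0.20 (exact permutation p = 0.714, adjusted p = 0.714). Without the 2 arrays farthest from the median of Abcg5, r was 0.90, 0.64 and 0.49 on scan days 3, 2 and 1. The correlation therefore passed the adjusted threshold on scan day 3 alone, and the difference between scan days was not tested.

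The LXR targets Abca1 and Abcg1 had r = -0.28, 0.51 and -0.40 and rho = -0.31, 0.40 and -0.46 on scan days 1, 2 and 3, and none of these passed (exact permutation p between 0.176 and 0.604 for r and between 0.302 and 0.564 for rho, adjusted p between 0.352 and 0.604 and between 0.490 and 0.677). Without the 2 arrays farthest from the median of Abca1, r was -0.21, -0.39 and -0.03.

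**Figure D5:**
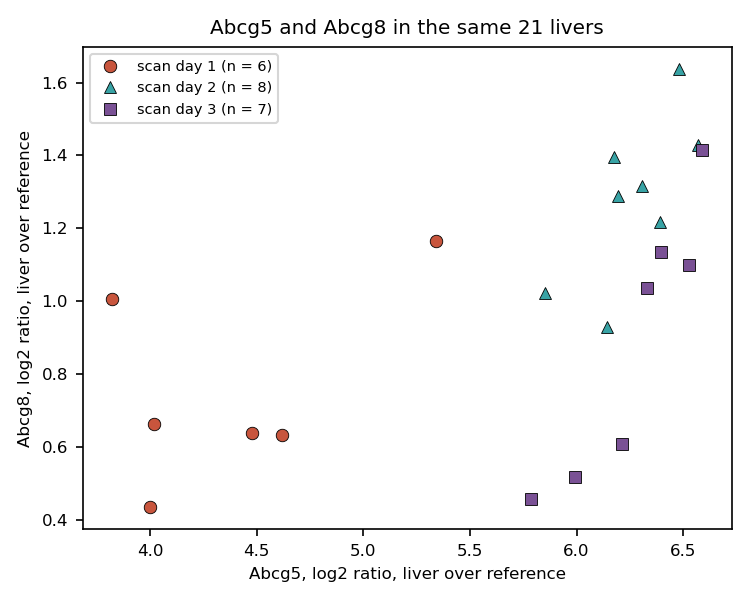
Abcg8 (vertical axis) against Abcg5 (horizontal axis), both as log2 ratios of liver over reference, with 1 point per mouse and a colour and shape per scan day. Scan day 1 lies apart at low Abcg5 (3.82 to 5.34), and the correlation within a scan day passed the adjusted threshold on scan day 3 (r = 0.93), not on scan days 1 and 2 (r = 0.48 and 0.71).

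Genes linked to the transporters were read from lists. Of 9 LXR targets, which include Abca1, Abcg1, Abcg5 and Abcg8, 1 was higher and 8 lower in TiO2 mice at day 1 and 5 were higher and 4 lower at day 28, with 0 past the test at either day. Their median was -0.12 at day 1 and 0.01 at day 28, and -0.06 and 0.11 with scan day as a block. Mylip, which marks the LDL receptor for degradation, had -0.22 ± 0.16 at day 1 and 0.30 ± 0.17 at day 28, and Scd1, a fatty acid desaturase, had -0.51 ± 0.34 at day 28. Of 8 transporters on a list of genes lowered by endotoxin in rodent liver, 7 were lower and 1 higher at day 1, and 3 were higher and 5 lower at day 28, again with 0 past the test. The list's median was -0.10 at day 1 and -0.06 at day 28, against -0.0055 and 0.0044 for all features. With scan day as a block it was -0.09 and -0.02, against -0.0110 and -0.0030.

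Acute phase genes, which the liver makes during systemic inflammation, gave a measure of the mice beside these values. At day 1 all 9 were higher in TiO2 mice and 0 passed the adjusted threshold, with Lcn2 at 1.48 ± 0.27 (limma adjusted p = 0.289) and Saa3 at 2.41 ± 0.50 (adjusted p = 0.754). At an unadjusted p under 0.05 there were 5 of 9, against 1.72% of all features, and 7 with scan day as a block, against 4.09%. At day 28, 5 were higher and 4 lower in TiO2 mice, with 1 of 9 at that level (Apcs, 0.53 ± 0.18), against 0.942% of all features. In TiO2 mice all 9 were lower at day 28 than at day 1, and Lcn2, at -1.77 ± 0.25 (limma adjusted p = 0.00614), passed the threshold. At an unadjusted p under 0.05 there were 6 of 9, against 3.76% of all features. With scan day as a block 3 passed, Lcn2, Saa1 (adjusted p = 0.0114) and Saa3 at -2.46 (adjusted p = 0.0162). In control mice 8 of the 9 were lower at day 28 and 0 passed in limma, with Lcn2 at -0.66 ± 0.29 (adjusted p = 1). There, 2 of 9 had an unadjusted p under 0.05, against 3% of all features. The part of the acute phase in the differences of Slc22a26 and Abcc3 between days was not tested.

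Of 14 nuclear receptors and other regulators, 4 were higher and 10 lower in TiO2 mice at either day, with 0 past the test. Their median was -0.08 at day 1 and -0.08 at day 28, and -0.07 and 0.0054 with scan day as a block. Nr1h2, which encodes LXR beta, had 0.18 ± 0.10 at day 1, and Nr0b2, the small heterodimer partner, had 0.45 ± 0.30 at day 1 and 0.45 ± 0.32 at day 28. Of 19 tested partner transporters, which include the bile salt carrier Slc10a1 and the Abcd, Abce and Abcf genes, 9 were higher and 10 lower at day 1, and 10 were higher and 9 lower at day 28, with 0 past the test. Slc47a1, a cation exporter, had -0.56 ± 0.44 at day 1 and Slc10a1 had 0.23 ± 0.23 at day 28.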

How the data were processed

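Liver RNA of 21 mice was measured on 21 2-colour Agilent arrays, each with 43379 spots that are not controls for 41174 probes. The deposited scanner files hold spot and background intensity, a log10 ratio of the scanner software and background flags, made with Agilent Feature Extraction 10.7.3.1 per the file headers, whereas the submitters' processing notes name 9.5.3.1. A deposited table of log2 values of the same arrays was used as an alternative, and it correlated at 0.9957 to 0.9971 per array with the ratios below; the sources used here do not say how the authors made it. Median spot intensities were corrected with normexp (offset 50) and normalised by loess within arrays in limma 3.58.1 (R 4.3.3), with control spots at weight 0 and outlier spots, 103 to 493 per array, left out. Between 1043 and 2829 spots per array whose signal or background was marked by the scanner software were given the array's median background, a choice made after the data were seen because the correction failed on 3 arrays without it. Replicate spots were averaged. A probe was tested when its liver signal was well above background on at least 50% of the arrays of a group, and a gene was read by its brightest probe.

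Probe accessions were named through RefSeq, which named 23374 of 41174 probes. All 4 groups entered one limma fit with 17 residual degrees of freedom, with p-values adjusted by Benjamini-Hochberg over 17624 features. Scan day, slide, background correction, normalisation, filter, probe choice, array weights and left-out mice were alternatives. Named were transporters with an established role in liver, the 3 with the smallest p in each direction per comparison, the 2 highest and the lowest of each family, and the 2 with the smallest p of other lists; further genes were named after their values were seen. The limma fit without scan day was tested on simulated log ratios with known changes planted in TiO2 mice at day 1. The simulated arrays were independent and shared no scan-day shift. Background correction, normalisation, the filter, the scan-day block and the correlations were not part of that test. Within-scan-day correlations used exact permutation tests. One of the 48 tested transporters is counted but not reported by name. The members and lists were chosen with earlier results of these data known. The series text speaks of 22 arrays, of which 21 are analysed here. The number of arrays limits the precision.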

Additional observations from a re-analysis of the deposited data

Results flagged for a closer look

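Of 120 sets of values, each a named transporter in 1 group of 4 to 6 mice, 6 had a mouse standing apart from the others by Dixon's criterion, and chance alone gives this in about 1 in 20 groups. The 4 low values came from 3 mice, all on scan day 1. Abcb1b was 0.81 in TiO2 day 28 replicate 1, with the next mouse at 1.76. Abcb4 was 3.17 in control day 1 replicate 1, with the next at 4.09, and Abcg5 was 4.62 in the same mouse, with the next at 6.14. In control day 28 replicate 1, Abcg5 was 3.82, with the next at 6.31. High values were those of Slc22a4, at 0.38 in control day 1 replicate 4, with the next at -0.20, and at 0.20 in TiO2 day 28 replicate 4, with the next at -0.04. All values are log2 ratios of liver over reference.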

How the results depend on the processing

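The count of transporters past the adjusted threshold was 0 under all settings tried for TiO2 against control at day 1 (40 settings) and day 28 (38), for the change of the TiO2 effect (59) and for the days in control mice (36). For the days in TiO2 mice it was 0 under 35 of 42 settings and 1, always Slc22a26, under 7: scan day as a block, slide as a random block, no background subtraction with the scan day block, the deposited series table with that block, and the block without TiO2 day 1 replicate 5 or without TiO2 day 28 replicate 1 or 5. The last 5 of these were added after the data were seen. Leaving out 1 mouse at a time moved the Slc22a26 difference between -0.85 and -0.69 without the block, where it never passed. Of 150 differences of the 30 named tested transporters, 105 changed sign under at least 1 of the other settings and 45 under none of them; Slc22a26 at day 1 turned to -0.18 with the scanner software's log ratios. The causes were not tested. No paired analysis was possible because the replicate numbers were given in accession order and pair no mice. With 4 to 6 mice a group, a median SE of 0.17 at day 1 and 0.18 at day 28 limits the differences that can be seen.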

Other observations

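Averaged over both days, a contrast added after the data were seen, no transporter passed between TiO2 and control mice (limma adjusted p, 0% of all features). Abcc2 had the difference -0.27 ± 0.13 and Slc22a29 -0.54 ± 0.27 (limma adjusted p = 1 for both). For Abcg5, Abcb4 and Abca1 the SE of this contrast was smaller with scan day as a block. Abcg5 had -0.20 ± 0.40 without the block and 0.01 ± 0.15 with it. Abcb4 had -0.04 ± 0.17 and 0.04 ± 0.07, and Abca1 had -0.02 ± 0.30 and 0.14 ± 0.14.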
